A study of Homo sapiens with 6 samples.

Results

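HSP90 is an abundant ATP-driven chaperone that helps kinases, steroid hormone receptors and other client proteins reach or keep their active shape. It works with co-chaperones, which deliver clients, set the pace of its ATP cycle or hold it in its closed state. Measured here were the transcripts of the cytosolic HSP90 genes HSP90AA1 and HSP90AB1, of the mitochondrial HSP90 gene TRAP1, and of 7 co-chaperone genes, namely STIP1, AHSA1, FKBP4, FKBP5, PTGES3, CDC37 and CHORDC1. All probe sets whose annotated gene symbol was 1 of these 10 names were taken, which gave 22 probe sets of 54613 on the array, for 9 of the 10 genes. AHSA1, an activator of the HSP90 ATPase, was not analysed here, since no probe set carried its symbol alone in the annotation used, and 1 further probe set that carried CHORDC1 together with another symbol was left out. Of the 22 probe sets, 20 passed the filter on dim probe sets. The other two, 239622_at of TRAP1 (0.49 to 5.51) and 239436_at of CHORDC1 (15.4 to 35.5), lay too low to be tested.

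Total RNA came from a human kidney cell line transfected with an empty vector (mock), with hIMP1 wt or with hIMP1 Dmut, and each of the 3 groups had 2 arrays, numbered 1 and 2. IMP1 (gene IGF2BP1) binds selected mRNAs in the cytoplasm. The labels neither name the cell line nor say what Dmut changes, and they give no promoter, dose or time after transfection. Nothing in them says that the 2 arrays of a group are separate cultures, so the p-values reflect only array-to-array spread, possibly technical.

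The array medians lay between 26.7 and 33.7. Arrays that share a number correlated at 0.970 to 0.980 over the tested probe sets, and arrays that share a group at 0.963 to 0.964. Of 19 kidney epithelial marker genes, 16 were on the array and 7 passed the filter. These were KRT18, KRT8, EPCAM, PAX8, WT1, CDH1 and the nephron marker AQP2, the last at 6.20 to 58.2. PAX2, LHX1, NPHS1, SLC34A1 and CDH16 were among those that did not pass. The summed intensity of the 16 ranged from 2301 to 2672 over the arrays. The neuronal list had 4 of 7 genes past the filter (NEFL, TUBB3, ENO2 and INA), with the 7 summing to 3479 to 4214, and the blood, fibroblast and endothelial lists had 2 of 5, 2 of 8 and 1 of 6. Those that passed were CD3E (6.30 to 57.1) and HBB (34.9 to 86.9), COL1A1 (87.2 to 166) and THY1 (24.9 to 43.1), and PECAM1 (7.50 to 60.9). PTPRC (0.65 to 17.7) and VWF (3.55 to 15.4) were among those below the filter.

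Several of these genes belong to the heat shock response, in which the factor HSF1 binds heat shock elements, inverted repeats of the unit GAA. Promoter windows of 300 bases, 250 before and 50 after an annotated start, were read from RefSeq (GRCh38.p14) for 9 of the 10 genes, and FKBP4 had none in the table. A 2-unit repeat (GAANNTTC or TTCNNGAA, which covers both strands) occurred in windows of 4 of the 9 genes, or 44.4%, against 13.5% of all 35116 windows and 16.2% of the 27305 genes in the table. A 3-unit repeat (GAANNTTCNNGAA or TTCNNGAANNTTC) occurred for 3 of the 9 genes, or 33.3%, against 0.49% of windows and 0.608% of genes. Each 3-unit match contains overlapping 2-unit matches. A match describes these letters in this window and is neither a site nor a cause of any value below. The 3 genes are HSP90AA1 (in 1 of its 2 windows), HSP90AB1 (in 1 of its 3) and CHORDC1 (in its only window), and they are shown because their transcripts can be set beside HSPA6, a strictly inducible HSP70 gene whose window also holds such a match. The capitals mark the 3-unit match, and the sequences are given 5′ to 3′ on the strand of the gene.
HSP90AA1, chr14:102087100-102087152, minus strand, match starting 88 bases before the start: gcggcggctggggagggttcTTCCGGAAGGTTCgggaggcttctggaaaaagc
HSP90AB1, chr6:44247758-44247810, plus strand, 165 bases before the start: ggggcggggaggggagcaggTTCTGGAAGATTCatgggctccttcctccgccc
HSP90AB1, chr6:44247811-44247863, plus strand, 112 bases before the start: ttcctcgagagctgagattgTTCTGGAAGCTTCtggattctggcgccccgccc
CHORDC1, chr11:90223072-90223124, minus strand, 55 bases before the start: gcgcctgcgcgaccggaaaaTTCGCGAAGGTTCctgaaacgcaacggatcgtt
HSPA6, chr1:161524446-161524498, plus strand, 74 bases before the start: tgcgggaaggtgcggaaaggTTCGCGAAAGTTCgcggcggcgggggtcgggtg
CHORDC1 held 3 such matches that overlap each other, of which the middle one is printed. The window of STIP1 held a 2-unit match only, 14 bases after its start, and the windows of TRAP1, AHSA1, FKBP5, PTGES3 and CDC37 held no match of either kind.

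Across the 3 comparisons between groups, no HSP90 or co-chaperone transcript passed the test. Values are deposited intensities on a linear scale. Changes are differences of log2(intensity + 9.05), tested with limma over 27307 probe sets and adjusted by the Benjamini-Hochberg method, with ± giving the standard error. Of the 20 probe sets, 0 passed an adjusted p of 0.05 for hIMP1 wt against mock (0.00732% of all tested probe sets), 0 for hIMP1 Dmut against mock (0.00732%) and 0 for hIMP1 Dmut against hIMP1 wt (0%). In each of the 60 estimates the adjusted p was 1.00. At an unadjusted p of 0.05 the counts were 0 of 20 (1.03% of all), 0 of 20 (1.42%) and 1 of 20 (1.23%). The median standard error of the 20 probe sets was 0.19, against 0.28 over all tested probe sets. With 2 arrays against 2, an exact permutation test cannot go below a p of 0.33.

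**Figure D1:**
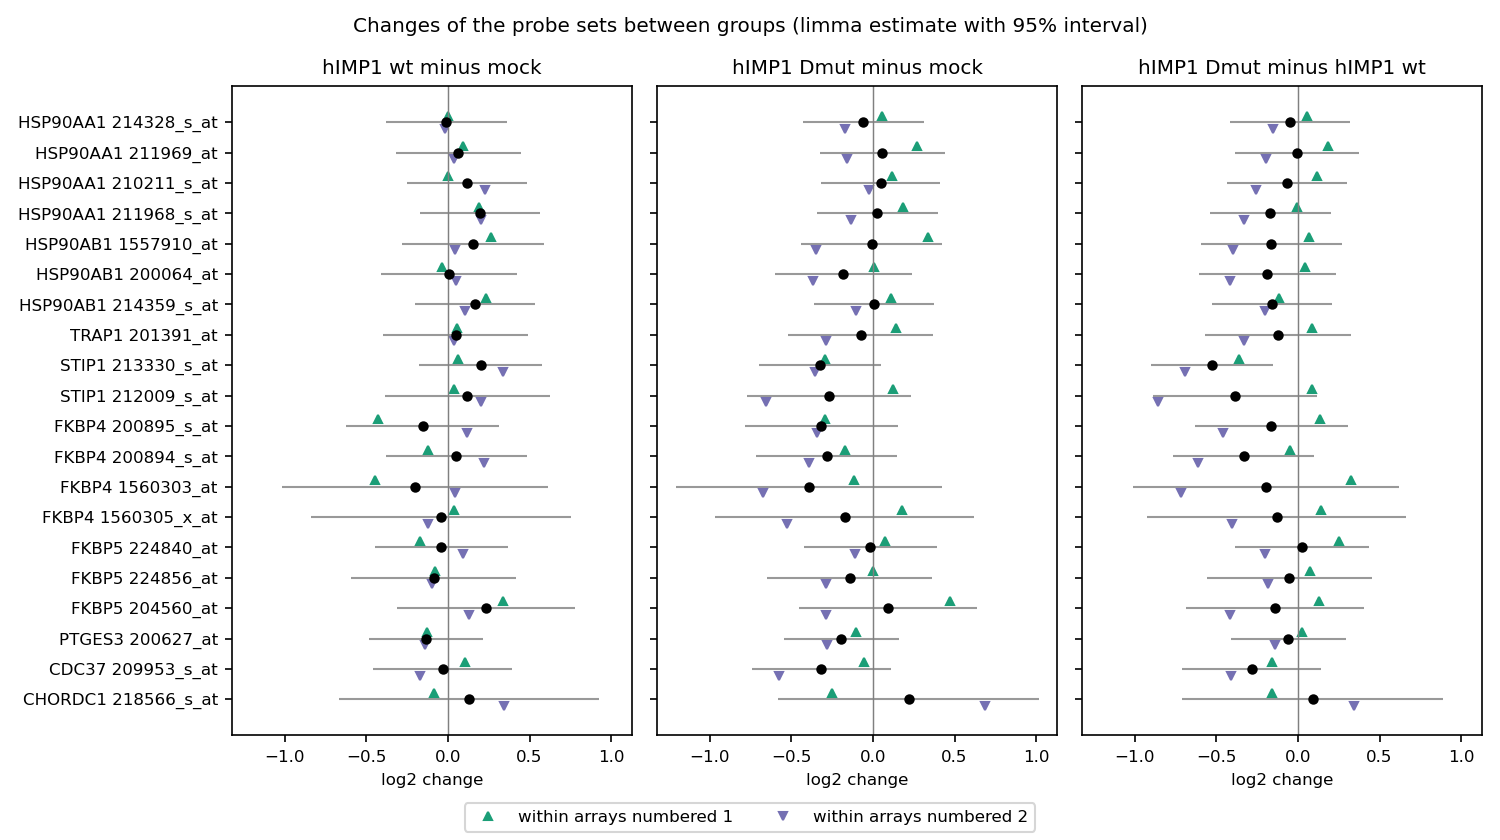
Log2 change of each of the 20 probe sets (rows) in the 3 comparisons (panels), with black points for the limma estimate, grey bars for its 95% interval and triangles for the change within the arrays numbered 1 or 2. In the panels with hIMP1 Dmut the downward triangles (arrays numbered 2) lie left of the upward ones for all rows but CHORDC1, and only the interval of STIP1 213330_s_at in the right panel leaves out 0.

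HSP90AA1 encodes the stress-inducible cytosolic HSP90α and was read by 4 probe sets. At its brightest, 214328_s_at, the intensities were 11155 and 12768 on the mock arrays, 11174 and 12583 with hIMP1 wt, and 11609 and 11322 with hIMP1 Dmut. The 3 groups overlapped, and their spread was wider within mock than between the group means. The change was -0.01 ± 0.17 for hIMP1 wt (95% interval -0.38 to 0.36) and -0.06 ± 0.17 for hIMP1 Dmut (-0.43 to 0.31), so the intervals leave room for a shift of about 0.4 either way. At 211968_s_at the mock arrays had 6415 and 6598, the hIMP1 wt arrays 7326 and 7579.7, and the hIMP1 Dmut arrays 7291 and 6022. Here both hIMP1 wt arrays lay above both mock arrays, with a change of 0.20 ± 0.17, while the hIMP1 Dmut arrays lay on either side of mock. The other two probe sets, 211969_at and 210211_s_at, gave changes between 0.05 and 0.12 for both constructs against mock.

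HSP90AB1 encodes HSP90β, the form that most cells make constitutively, and 3 probe sets read it. Its 1557910_at had 5300.2 and 7093 on the mock arrays, 6369 and 7312 with hIMP1 wt, and 6685 and 5557 with hIMP1 Dmut. The second mock array was far above the first, and the second hIMP1 Dmut array far below the first, so that the groups overlapped. At 200064_at the values were 5904 and 7236 with mock, 5749 and 7488 with hIMP1 wt, and 5925 and 5611 with hIMP1 Dmut, which again spread more within the mock and hIMP1 wt groups than between them. Over the 3 probe sets the change lay between 0.01 and 0.17 for hIMP1 wt and between -0.18 and 0.01 for hIMP1 Dmut. For hIMP1 Dmut it turned sign between the numbers at 1557910_at, with 0.33 in number 1 and -0.35 in number 2.

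TRAP1, the mitochondrial HSP90, had 1539 and 2031 on the mock arrays, 1599 and 2087 with hIMP1 wt, and 1696 and 1661 with hIMP1 Dmut at 201391_at. The mock and hIMP1 wt arrays numbered 2 were higher than those numbered 1 by 0.40 and 0.38, a step that the hIMP1 Dmut arrays did not show (-0.03). The group changes were 0.05 ± 0.20 for hIMP1 wt and -0.07 ± 0.20 for hIMP1 Dmut.

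STIP1, also called HOP, bridges HSP70 and HSP90 and passes clients from the first to the second. It had the only probe set of the 20 with an unadjusted p under 0.05 in a comparison between groups. At 213330_s_at the mock arrays had 1609 and 1560.03, the hIMP1 wt arrays 1682 and 1971, and the hIMP1 Dmut arrays 1311 and 1217. The 3 groups did not overlap, with hIMP1 Dmut lowest and hIMP1 wt highest. Between hIMP1 Dmut and hIMP1 wt the change was -0.52 ± 0.17, or 1.44-fold (95% interval -0.90 to -0.15; limma, unadjusted p = 0.0108 and adjusted p = 1.00), with -0.36 in number 1 and -0.69 in number 2. Against mock it was 0.20 ± 0.17 for hIMP1 wt and -0.32 ± 0.17 for hIMP1 Dmut. The second probe set, 212009_s_at, had 1351 and 1513 with mock, 1388 and 1739 with hIMP1 wt, and 1473 and 957 with hIMP1 Dmut. Its first hIMP1 Dmut array was above the first hIMP1 wt array and its second far below every other array, so the change between the constructs, -0.39 ± 0.23, was 0.08 in number 1 and -0.86 in number 2. Without hIMP1 Dmut replicate 2 the change between the constructs was -0.47 at 213330_s_at and -0.08 at 212009_s_at.

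FKBP4 and FKBP5 encode the immunophilins FKBP52 and FKBP51, which bind HSP90 through tetratricopeptide repeats and act in opposite ways on the glucocorticoid receptor. FKBP4 had 1759 and 1847 on the mock arrays, 1305 and 2006 with hIMP1 wt, and 1434 and 1456 with hIMP1 Dmut at 200895_s_at. Both hIMP1 Dmut arrays lay below both mock arrays, with a change of -0.32 ± 0.21, and the 2 hIMP1 wt arrays lay on either side of all the others. At 200894_s_at the values were 908 and 816 with mock, 833 and 952 with hIMP1 wt, and 804 and 619.8 with hIMP1 Dmut, again with hIMP1 Dmut below mock on both arrays (-0.28 ± 0.19). The dim probe sets 1560303_at (31.5 to 70.05) and 1560305_x_at (29.5 to 51.02) had their lowest value on hIMP1 Dmut replicate 2.

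FKBP5 was read by 3 probe sets whose changes against mock differed in sign for each construct. At 224840_at the values were 1229.97 and 1103 with mock, 1089 and 1178 with hIMP1 wt, and 1298 and 1023 with hIMP1 Dmut, with overlapping groups and changes of -0.04 ± 0.18 and -0.02 ± 0.18. At 204560_at the mock arrays had 231 and 251, the hIMP1 wt arrays 295 and 276, and the hIMP1 Dmut arrays 324 and 205. Here hIMP1 wt was above mock on both arrays (0.23 ± 0.25), and the hIMP1 Dmut arrays held both the highest and the lowest value of all 6.

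PTGES3 encodes p23, which stabilises the closed, ATP-bound form of HSP90. Its 200627_at had 10491 and 10781 on the mock arrays, 9595 and 9773 with hIMP1 wt, and 9759 and 8854 with hIMP1 Dmut. Both construct groups lay below both mock arrays, with changes of -0.14 ± 0.16 and -0.19 ± 0.16, which is about the size of the standard error. CDC37, the co-chaperone that loads protein kinases onto HSP90, had 727 and 829 with mock, 782 and 736 with hIMP1 wt, and 699.5 and 552 with hIMP1 Dmut at 209953_s_at. Both hIMP1 Dmut arrays were the lowest of the 6. The change of CDC37 against mock was -0.32 ± 0.19, with -0.06 in number 1 and -0.58 in number 2, and without hIMP1 Dmut replicate 2 it was -0.15.

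**Figure D2:**
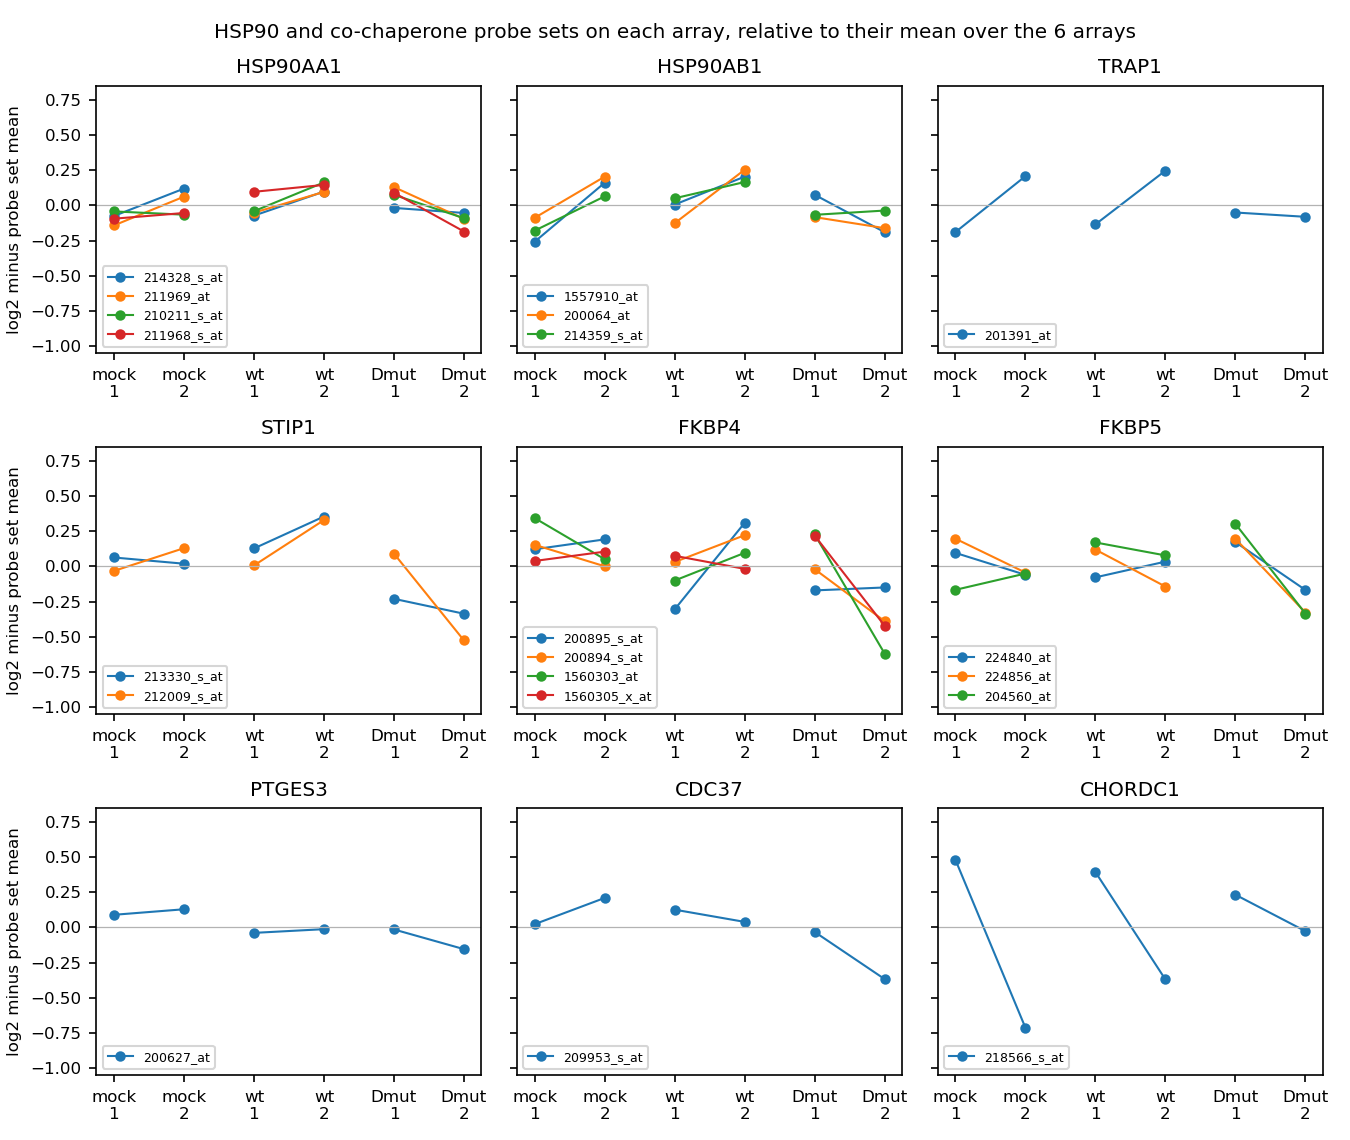
Log2(intensity + 9.05) of each probe set on each array minus its own mean over the 6 arrays, with a panel for each gene, a colour for each probe set and a line joining the 2 arrays of a group. CHORDC1 has the widest span, and every probe set except HSP90AB1 214359_s_at and FKBP4 200895_s_at lies lower on the second than on the first hIMP1 Dmut array.

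CHORDC1 encodes a zinc-binding (CHORD domain) co-chaperone, and its transcript differed more between the replicate numbers than between any groups. At 218566_s_at the arrays numbered 1 had 2500.4 with mock, 2352 with hIMP1 wt and 2102 with hIMP1 Dmut, and the arrays numbered 2 had 1087, 1381 and 1755. The 3 arrays numbered 1 were all above the 3 numbered 2, and the order of the groups was reversed between the numbers. The change of hIMP1 Dmut against mock was accordingly -0.25 in number 1 and 0.69 in number 2, and 0.22 ± 0.36 in the fit. With the group as a term, the transcript was lower on the arrays numbered 2, with a difference of -0.74 ± 0.15 (95% interval -1.07 to -0.41; limma, adjusted p = 0.0194), and the difference was -1.20 in mock, -0.76 with hIMP1 wt and -0.26 with hIMP1 Dmut. That call was lost with no filter (adjusted p = 0.0551), with a variance prior that ignores intensity (0.193), and without mock replicate 1 (0.143), mock replicate 2 (0.164), hIMP1 wt replicate 1 (0.0676) or hIMP1 wt replicate 2 (0.0859). The labels do not say what the numbers stand for.

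Over the 20 probe sets, CHORDC1 was the only one past the adjusted threshold between the numbers, against 5.71% of all tested probe sets. At an unadjusted p of 0.05, 2 of 20 passed, against 22.3% of all, the second being FKBP5 224856_at. That probe set had 564 and 476 with mock, 534 and 444 with hIMP1 wt, and 564 and 389 with hIMP1 Dmut on the arrays numbered 1 and 2, lower on the second array of each group (-0.34 ± 0.12; limma, adjusted p = 0.122). In all 3 groups 2 of 20 were higher on the second array (HSP90AB1 214359_s_at and FKBP4 200895_s_at; 21.2% of all), and 2 of 20 were lower (FKBP5 224856_at and CHORDC1; 22.2%). None of these shares was above that over all probe sets. Without hIMP1 Dmut replicate 1 or replicate 2, 5 of the 20 passed between the numbers, as did 20% of all tested probe sets (the lone array is assumed to vary like the others), adding HSP90AB1 1557910_at (0.31) and 200064_at (0.34), TRAP1 (0.39) and FKBP4 200895_s_at (0.34), all higher on the arrays numbered 2.

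**Figure D3:**
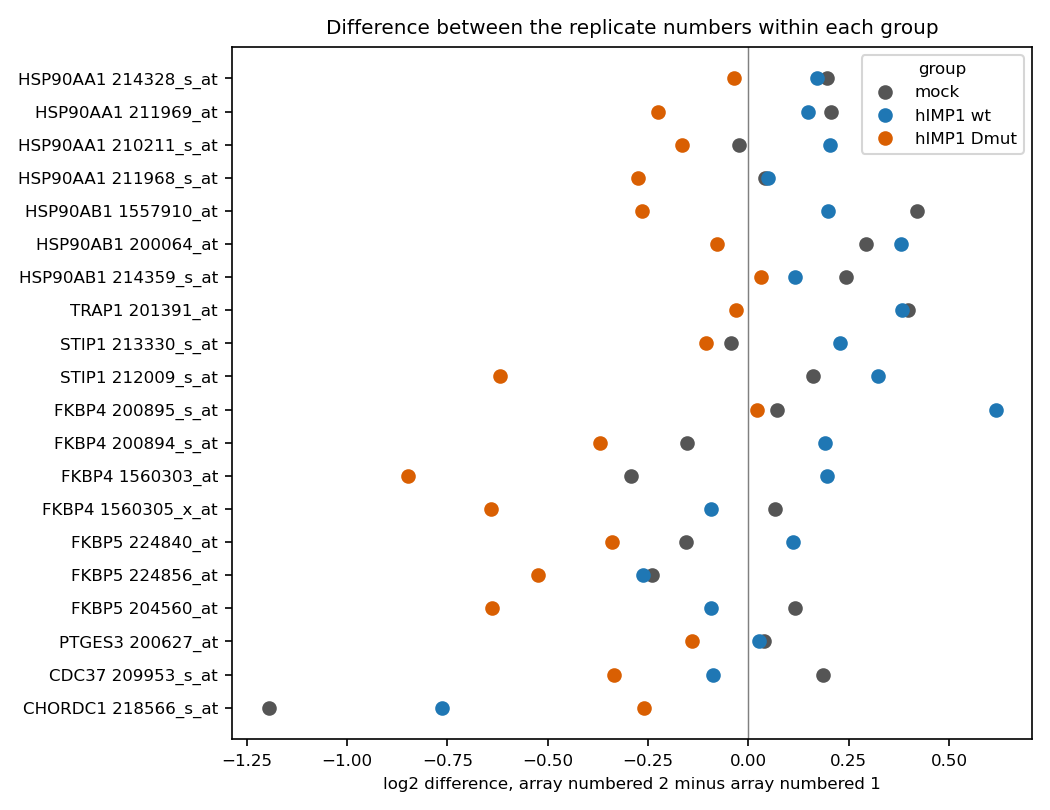
Log2 difference between the array numbered 2 and the array numbered 1 within each group, for each of the 20 probe sets. CHORDC1 lies at -1.20 in mock, -0.76 with hIMP1 wt and -0.26 with hIMP1 Dmut, while hIMP1 Dmut holds the lowest of the 3 points for every other probe set shown.

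The groups of arrays failed to overlap for some members, at shares to be read against the whole array. For hIMP1 wt against mock 4 of 20 probe sets, or 20%, were higher on both arrays (HSP90AA1 210211_s_at and 211968_s_at, STIP1 213330_s_at and FKBP5 204560_at; 9.72% of all tested) and 1, or 5%, was lower (PTGES3; 11.6%). For hIMP1 Dmut against mock 0 were higher (12.6%) and 5, or 25%, lower (STIP1 213330_s_at, both bright FKBP4 probe sets, PTGES3 and CDC37; 11%). Between hIMP1 Dmut and hIMP1 wt 0 were higher (13.1%) and 5, or 25%, lower (HSP90AA1 211968_s_at, HSP90AB1 214359_s_at, STIP1 213330_s_at, FKBP4 200894_s_at and CDC37; 8.89%). Probe sets of the same gene read the same RNA and are not separate evidence. Over the 9 genes, each by its brightest probe set, the median change was -0.01 for hIMP1 wt (4 genes higher, 5 lower), -0.07 for hIMP1 Dmut (1 higher, 8 lower) and -0.12 between hIMP1 Dmut and hIMP1 wt (2 higher, 7 lower). Over all 12269 genes the medians were -0.01, -0.01 and 0.01, and 46.5%, 48.7% and 52.4% were higher. The lower values with hIMP1 Dmut lay mainly on the arrays numbered 2, where the median over the 9 genes was -0.29 against mock and -0.33 against hIMP1 wt. Within the arrays numbered 1 the same medians were -0.06 and 0.06.

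A look at single arrays, made after the values were seen, shows the same split. hIMP1 Dmut replicate 2 held the lowest value of 13 of the 20 probe sets and the highest of none, and hIMP1 wt replicate 2 held the highest of 10. Over all tested probe sets hIMP1 Dmut replicate 2 was lowest for 16.2%, and among the brightest 25% for 25.8%; for hIMP1 wt replicate 2 the shares that were highest were 13.2% and 22.5%. These same arrays had the extremes of the array median, 33.7 for hIMP1 Dmut replicate 2 and 26.7 for hIMP1 wt replicate 2. hIMP1 Dmut replicate 2 also had the highest summed blood and fibroblast markers, 145 and 346, against 81.5 to 136 and 205 to 294 on the others, with PTPRC and COL3A1 below the filter. The genes of these 2 lists did not move together on that array. HBB (86.9) and COL3A1 (50.6) were highest there, but CD14 (0.65) was lowest. CD3E (30.1), COL1A2 (17.5) and PDGFRB (3.21) were each lower there than on most other arrays. COL1A1, the brightest fibroblast gene, had 165 there and 166 on hIMP1 wt replicate 1, and the endothelial sum was highest on mock replicate 1 (120). The part of the array medians and marker sums in the result was not tested. With quantile scaling hIMP1 Dmut replicate 2 was lowest for 10 and hIMP1 wt replicate 2 highest for 5, and with median scaling the counts were 14 and 13.

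HSPA6 and the HSP40 gene DNAJB1 were set beside the members because they belong to the same heat shock response. Unlike that of HSPA6, the windows of DNAJB1 held 2-unit matches but no 3-unit match. HSPA6 had 28.6 and 3.02 on the mock arrays, 646 and 454 with hIMP1 wt, and 1033 and 824 with hIMP1 Dmut at 213418_at. With hIMP1 wt it rose by 4.69 ± 0.44, and with hIMP1 Dmut it rose by 5.45 ± 0.44 (limma, adjusted p = 0.0119 and 0.00292), calls that held in 12 and 14 of 17 settings, with adjusted p up to 0.419 and 0.376 over them. Both were lost with a prior that ignores intensity, and without hIMP1 Dmut replicate 1 (0.209 and 0.376) or replicate 2 (0.212 and 0.251). The mock values lie near the bottom of the scale, so the changes ran from 3.68 to 5.51 and from 4.41 to 6.27 over the settings, and the near-identical gene HSPA7 may share this probe set's signal. DNAJB1 had 529.7 and 489 with mock, 771 and 714 with hIMP1 wt, and 1043 and 884 with hIMP1 Dmut, without overlap between the groups. Its changes of 0.54 ± 0.18 and 0.90 ± 0.18 did not pass (adjusted p = 1.00). With the replicate number as a term, the DNAJB1 change for hIMP1 Dmut did not pass either (limma, adjusted p = 0.150). HSP90AA1, HSP90AB1 and CHORDC1, whose windows hold a 3-unit match as that of HSPA6 does, had changes against mock between -0.06 and 0.22 at their brightest probe sets, with intervals that include 0. The intervals leave room for a response, since that of CHORDC1 with hIMP1 Dmut ran from -0.58 to 1.02. HSP90AA1 and HSP90AB1 lay at the 99.7th and 99.4th percentile of all probe sets, unlike HSPA6 in mock. The part of this difference in level was not tested.

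**Figure D4:**
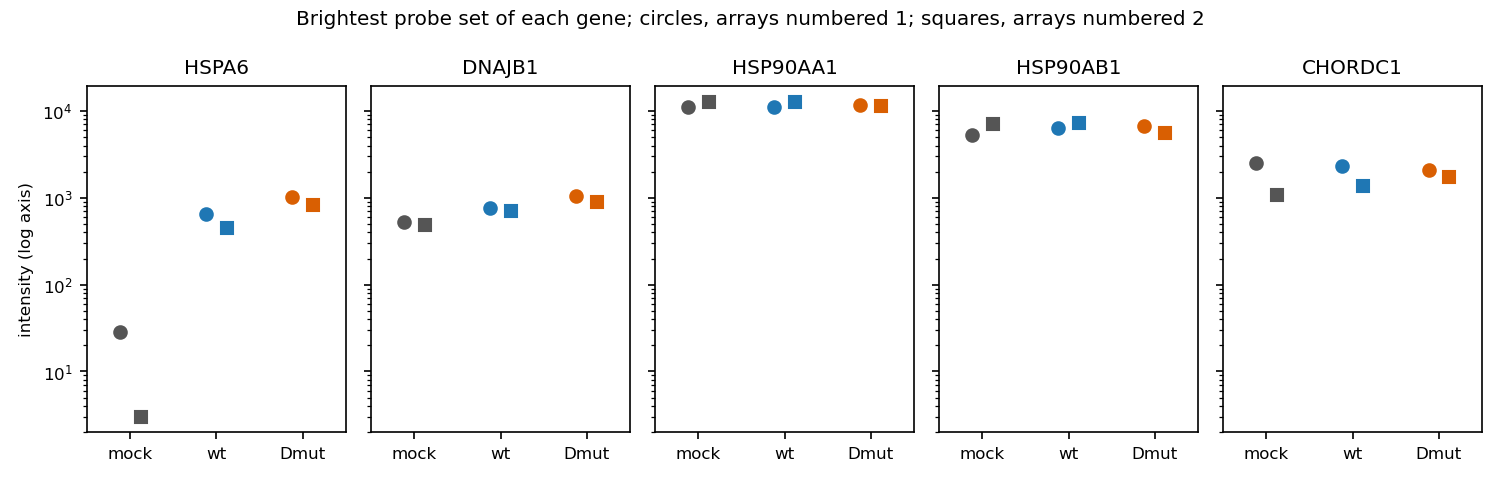
Intensity on a log axis of the brightest probe set of HSPA6, DNAJB1, HSP90AA1, HSP90AB1 and CHORDC1, with circles for arrays numbered 1, squares for arrays numbered 2 and a colour for each group. HSPA6 goes from at most 28.6 with mock to at least 454 with the constructs, while the mock arrays of HSP90AA1, HSP90AB1 and CHORDC1 overlap those of the constructs; levels are not comparable between panels.

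Other genes of the pathway were read as lists, each gene by its brightest probe set. Counts of these genes called between the numbers are to be read against the 5.71% of all tested probe sets called there, and with a variance prior that ignores intensity 0 of the 27307 probe sets were called, so every such call is lost under that setting. Of 27 measured further HSP90 family members and co-chaperones, none passed the adjusted threshold between groups, and the medians were 0.04 for hIMP1 wt, -0.03 for hIMP1 Dmut and -0.07 between the constructs. As with the members, more of these genes were lower than higher with hIMP1 Dmut (17 against 10 of 27 against mock, 20 against 7 against hIMP1 wt), while 48.7% and 52.4% of all 12269 genes were higher. These lower values, too, lay mainly on the arrays numbered 2, where the list median was -0.11 against mock and -0.16 against hIMP1 wt. Within the arrays numbered 1 the same medians were 0.02 and -0.02. HSP90B1, the HSP90 of the endoplasmic reticulum, had changes of 0.14 ± 0.17 and -0.04 ± 0.17. The largest statistics were those of the phosphatase PPP5C (0.29 ± 0.21), TSC1 (-0.30 ± 0.21) and RUVBL1 (0.17 ± 0.17) for hIMP1 wt, and of the myosin chaperone UNC45A (-0.39 ± 0.25), NUDCD3 (0.29 ± 0.19) and NUDC (-0.23 ± 0.19) for hIMP1 Dmut. Between the constructs they were TSC1 (0.40 ± 0.21), UNC45A (-0.39 ± 0.25) and TELO2 (-0.34 ± 0.22). Between the numbers 1 of the 27 (5.71% of all probe sets), the ubiquitin protease gene USP19, was called (-0.54 ± 0.13; limma, adjusted p = 0.0348), followed by SGTA (-0.59 ± 0.16) and PPID (-0.40 ± 0.11).

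HSP70 with its partners hands clients to HSP90. Of 17 measured HSP70 partners 14 were higher with hIMP1 wt (median 0.14) and 12 with hIMP1 Dmut (median 0.06), against 46.5% and 48.7% of all genes. The hIMP1 Dmut median was 0.22 in number 1 and -0.05 in number 2, and between the constructs the median was 0.02. HSPA6 was the only one of the 17 called between groups. DNAJB1 and BAG3 (0.31 ± 0.25 and 0.67 ± 0.25) followed it. Between the numbers 4 of the 17 were called (5.71% of all probe sets) and lower on the second arrays, namely DNAJA2 (-0.57 ± 0.12), DNAJA1 (-0.50 ± 0.12), BAG3 (-0.45 ± 0.12) and HSPA6 (-0.82 ± 0.22). For HSPA6 this includes the mock arrays, at 28.6 and 3.02 near the bottom of the scale. Its values were 646 and 454 with hIMP1 wt, and 1033 and 824 with hIMP1 Dmut. Of 17 measured further HSF1 targets, some of them in the HSP70 list too, only HSPA6 was called between groups (medians 0.16, 0.06 and -0.02), and SERPINH1, a collagen chaperone, had 0.47 ± 0.26 with hIMP1 wt. For hIMP1 Dmut the median of these targets was 0.20 in number 1 and -0.03 in number 2. Between the numbers 5 of these 17 were called (4 of them lower), calls that are likewise lost with a prior that ignores intensity, with HSPB8 lower (-1.26 ± 0.22) and HSPB1 higher (0.83 ± 0.16). The rest of these calls were DNAJA1, BAG3 and HSPA6, already counted among the HSP70 partners.

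FKBP5 is itself induced by glucocorticoid receptor, an HSP90 client, so other receptor targets were read beside it. Of 15 measured, none was called between groups (medians -0.06, 0.01 and 0.09). The largest statistics were those of MT2A (-0.48 ± 0.24), ZBTB16 (-0.47 ± 0.39) and CEBPD (-0.34 ± 0.34) for hIMP1 wt, of PDK4 (0.63 ± 0.40), MT2A (-0.23 ± 0.24) and DUSP1 (0.39 ± 0.42) for hIMP1 Dmut, and of ZBTB16 (0.47 ± 0.39), MT2A (0.25 ± 0.24) and PDK4 (0.28 ± 0.40) between the constructs. Between the numbers 3 were called (5.71% of all probe sets, and none with a prior that ignores intensity), TSC22D3 (GILZ) and SESN1 higher on the second arrays (1.53 ± 0.11 and 0.67 ± 0.12) and DUSP1 lower (-0.99 ± 0.11). FKBP5 did not share the direction of TSC22D3, with -0.13 ± 0.12, -0.34 ± 0.12 and -0.20 ± 0.16 at its 3 probe sets.

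Transcripts of HSP90 clients gave medians of 0.03, -0.02 and 0.01 over 25 measured genes, and none was called between groups. For hIMP1 Dmut against mock the mitotic kinase PLK1 (-0.75 ± 0.26), the oestrogen receptor gene ESR1 (-1.26 ± 0.57) and STK11 (0.41 ± 0.23) had the largest statistics, with PLK1 at -0.20 in number 1 and -1.31 in number 2. For hIMP1 wt they were ESR1 (-0.70 ± 0.57), PLK1 (-0.27 ± 0.26) and AKT1 (0.25 ± 0.26), and between the constructs PLK1 (-0.48 ± 0.26), AHR (0.41 ± 0.25) and WEE1 (-0.23 ± 0.18). ESR1 was dim, with 53.7 and 47.6 on the mock arrays, 48.9 and 14.2 with hIMP1 wt, and 6.17 and 31.5 with hIMP1 Dmut. Against mock it changed by -2.04 in number 1 and -0.48 in number 2 for hIMP1 Dmut, and by -0.11 and -1.28 for hIMP1 wt. PDK1 was the 1 gene of this list called between the numbers (0.49 ± 0.11), before SRC (-0.67 ± 0.23) and MET (0.43 ± 0.15). By its symbol PDK1 is the mitochondrial pyruvate dehydrogenase kinase, not the signalling kinase PDPK1 that is also called PDK1. Its call is therefore not read as that of a client, though the medians above include it.

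Probe sets of the same gene followed each other only in part over the 6 arrays. Pearson's r of the log2 values lay between 0.29 and 0.80 for the 4 probe sets of HSP90AA1, between 0.70 and 0.82 for HSP90AB1 and between 0.59 and 0.73 for FKBP5, and it was 0.76 for STIP1. For FKBP4 it was 0.54 between the bright probe sets and 0.08 between 200895_s_at and 1560305_x_at. The suffixes _s_at and _x_at mark probe sets that can match more than 1 transcript, and the HSP90 genes have near-identical copies elsewhere in the genome, so their signal may be shared. The genes most like HSP90AA1 over the 6 arrays, by Pearson's r of the brightest probe sets, were HNRNPA1, UFC1, SSR4 and PFKM (r up to 0.9997). Those most like HSP90AB1 were EXOSC1, FIRRM, TMED1 and PSMB5 (r up to 0.988), and those most like FKBP5 were COX20, BUD13, SLC35G2 and PCBP1 (r up to 0.989). Over so few arrays such likeness is not particular to the genes named. Of 12269 genes, 564, 122 and 72 (4.60%, 0.99% and 0.59%) had an r over 0.9 with HSP90AA1, HSP90AB1 and FKBP5, and all values share the scaling of their array.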

How the data were processed

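The deposited values are intensities, 1 per probe set, on a linear scale. How the authors scaled them, and with what software, is not stated in the sources used here. The trimmed mean without 2% at each end was 150.02 on every array, so the deposited intensities appear to be scaled per array, and no detection calls were used. Groups came from the labels, and numbers from the sample titles. Gene symbols came from the platform annotation, and probe sets with several symbols named no gene.

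Of 54675 probe sets, 62 controls were left out. Values were used as log2(intensity + 9.05), the offset being the pooled lower quartile, which shrinks the changes of dim ones. Probe sets with a mean at or above the median (5.19) were kept. limma 3.58.1 in R 4.3.3 (lmFit, eBayes with intensity trend) fitted all 6 arrays, with 3 residual and 7.03 prior degrees of freedom, two-sided, with Benjamini-Hochberg adjustment over all 27307 kept probe sets. The difference between the numbers was fitted with the group as a term, with 2 residual degrees of freedom.

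The members and gene lists were chosen with earlier results of these data known. Named beside the members were, per list and comparison, the called genes and the 3 with the largest statistic, and the 4 genes most like HSP90AA1, HSP90AB1 and FKBP5. HSPA1A, HSPA1B and HSPA8 had no probe set with 1 symbol. The number of arrays limits the precision. Alternatives were 2 scalings, 2 offsets, 2 filters, a replicate block, a fit to only the 4 arrays compared, 2 variance priors, each array left out, and the mean of a gene's probe sets.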

Additional observations from a re-analysis of the deposited data

How the results depend on the processing

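In the 3 comparisons between groups the number of member probe sets called was 0 under every alternative run, so there was no called value whose direction could change. Single estimates were less stable: over the alternatives, 28, 24 and 22 of 318 values per comparison turned sign, and 10, 12 and 14 moved by more than their standard error. The median over the member genes for hIMP1 wt against mock (-0.01) was 0.026 with quantile scaling, 0.035 with median scaling, 0.047 with each gene's probe sets averaged and 0.044 within the arrays numbered 2, and it ranged from -0.11 to 0.076 with each array left out. For hIMP1 Dmut against mock the median (-0.07) was -0.29 within the arrays numbered 2. The count called between the numbers (1) was 0 with no filter and 0 with no intensity trend, and it ranged from 0 to 5 with each array left out, where the lone array of a group was assumed to vary like the others. The cause was not tested.

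The replicate block, with the number as a term, called 0 of 20 in each comparison between groups and so changed no call of a member. Without this term, differences between the numbers count as spread within the groups. With only 2 numbers, whose meaning the labels do not give, they were not used to pair the arrays, although deviations from the group means of arrays with the same number correlated at 0.46, 0.20 and 0.22. The 2 dim FKBP4 probe sets have no value under the filter at the 75th percentile.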
